A study of Ovis aries with 8 samples.

Results

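The receptor for cortisol, the enzymes that set how much active cortisol reaches it and 6 of its classic target genes were followed in perirenal adipose tissue, the fat depot around the kidney, of Callipyge and normal lambs. The genes were chosen by symbol: NR3C1, HSD11B1, HSD11B2, FKBP5, TSC22D3, PDK4, SGK1, DUSP1 and ZBTB16. The annotation of the array gave 8 of these 9 genes at least 1 probe set, 13 probe sets among the 24016 that were tested, and TSC22D3 is named only. The NmatCpat lambs had inherited the Callipyge mutation from the sire and a normal allele from the dam, and the NmatNpat lambs carried the normal allele on both. There were 4 lambs of each genotype, all male, 12 weeks old and bred from a Dorset/Suffolk/Rambouillet cross-bred flock, and the labels name no experimental treatment. Each lamb gave 1 array, which makes the lamb the replicate. The whole depot tissue was profiled, on an array whose probes were designed on cattle sequence, so a sheep transcript that differs under the probes can read low.

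Glucocorticoids are steroid hormones that enter the cell and bind the glucocorticoid receptor, which waits in the cytoplasm in a complex of HSP90 and co-chaperones. The bound receptor moves to the nucleus, where it raises the transcription of some genes and holds down others, many of them inflammatory. In fat, the hormone is known for roles in adipocyte differentiation, in lipolysis and in depot size, and the tissue itself regenerates active hormone from its inert keto form.

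None of the 8 measured genes passed the thresholds of the study in limma, a fold change over 1.5 with an unadjusted P no higher than 0.05, called P and fold below. This count of 0 of 8 stands beside 2.91% of all 9155 genes on their brightest probe set, and none of the 13 probe sets passed either, beside 3.93% of all 24016. A linear model without moderated variances also called none of them. Among the 8, FKBP5 had the largest difference above 0, at 0.47 on the log2 scale (NmatCpat minus NmatNpat), and DUSP1 the largest below 0, at -0.36. The median over the 8 genes was -0.04, against 0.0046 over all 9155 genes, with 3 genes above 0 and 5 below. After adjustment over the array, 0% of probe sets passed in limma at 0.05; before it, 4.66% of all probe sets and 3.79% of genes had a P of at most 0.05, and none of the 13 did. In no probe set of the 13 were the genotypes without overlap, where 2.74% of all probe sets and 2.84% of genes were. In whole tissue, fewer cells of a type and less RNA per cell cannot be told apart.

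Array medians of the deposited intensity were 65.9 to 71.7 in NmatCpat lambs and 65.3 to 72.55 in NmatNpat lambs. Values below are log2 intensities after quantile normalization, and they compare lambs within a probe set, not genes with each other. The mean of 7 measured fat cell markers was 10.91 to 11.18 in NmatCpat lambs and 10.81 to 11.08 in NmatNpat lambs. FABP4, a fatty acid carrier, and ADIPOQ, adiponectin, were among the brightest probe sets of the array, whereas LEP, leptin, was dim, at 3.84 to 5.50 in NmatCpat lambs and 3.80 to 5.78 in NmatNpat lambs. Among them only RBP4, a retinol carrier, had a P of at most 0.05, with a log2 difference of 0.54, under the fold threshold. The genotypes did not overlap for RBP4, which was so for 2.84% of all genes. RNA of neurons was present in NmatNpat animal 1, with NEFL, a neurofilament subunit, at 12.13 against 2.57 to 6.09 in the other NmatNpat and 0.54 to 4.17 in NmatCpat lambs. Some transcripts of skeletal muscle were high in NmatCpat animal 4, with MYL2, a myosin light chain, at 7.03 against 1.10 to 3.63 in the other NmatCpat and 0.96 to 3.20 in NmatNpat lambs. ACTA1, a muscle actin, was also highest in NmatCpat animal 4, at 9.92. The muscle markers were not of 1 direction. On their brightest probe sets CKM, a creatine kinase, was lowest in NmatCpat animal 4, at 9.22, and MYH7, a myosin heavy chain, was highest in NmatNpat animal 4, at 12.31. On the other CKM probe set and the dimmest of MYH7, NmatCpat animal 4 was highest, at 7.47 and 6.72. The remaining MYH7 probe set was highest in NmatNpat animal 2, at 5.43. The mean of 6 markers of neurons and adrenal medulla was 9.77 in NmatNpat animal 1, against 5.19 to 5.73 in NmatCpat and 4.81 to 6.39 in the other NmatNpat lambs, and that of 6 muscle markers was 8.17 in NmatCpat animal 4, against 6.78 to 7.34 in the other NmatCpat and 5.99 to 7.22 in NmatNpat lambs. The signal of the actin control at its 3′ end over that at its 5′ end, a measure of RNA integrity, was 7.64 to 11.8 in NmatCpat lambs, 26.1 in NmatNpat animal 1 and 4.04 to 9.81 in the other NmatNpat lambs. The same ratio of the GAPD control did not set this lamb apart, at 1.06, beside 1.03 to 1.11 in NmatCpat and 0.941 to 1.15 in the other NmatNpat lambs. The values of the 8 genes and of the wider lists were also taken without these lambs.

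NR3C1, the glucocorticoid receptor itself, read 11.27, 11.24, 10.99 and 10.56 in NmatCpat animals 1 to 4, against 10.62, 10.69, 10.97 and 10.91 in NmatNpat animals 1 to 4. The NmatCpat lambs held both the highest and the lowest value, and 3 of them lay above every NmatNpat lamb. Means were 11.02 ± 0.329 for NmatCpat and 10.80 ± 0.171 for NmatNpat lambs (SD, n = 4 each). The log2 difference of 0.22 had a 95% interval from -0.27 to 0.70 (limma, adjusted p = 0.983; exact permutation p = 0.314, two-sided here and throughout). The lowest of the 8 values was that of NmatCpat animal 4. The difference was 0.37 without this lamb and 0.31 without it and NmatNpat animal 1, and it stayed under the thresholds in both. The dimmer probe set of NR3C1 read 3.73, 3.73, 3.79 and 3.86 in NmatCpat lambs and 4.37, 4.08, 1.69 and 1.08 in NmatNpat lambs. Its mean level lay at 13.1% of the way up the array's probe sets, and the spread among NmatNpat lambs left an interval from -0.73 to 2.68 around its difference of 0.97.

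The enzymes HSD11B1 and HSD11B2 interconvert active and inert glucocorticoid. HSD11B1, which regenerates cortisol inside fat and liver cells, read 6.54, 6.58, 6.26 and 6.62 in NmatCpat lambs, against 6.85, 7.01, 6.18 and 6.54 in NmatNpat lambs. All 4 NmatCpat values lay inside the range of the NmatNpat values and below their mean. The log2 difference was -0.14 with an interval from -0.65 to 0.37 (limma, adjusted p = 0.983; exact permutation p = 0.571), and single lambs moved it, to -0.02 without NmatNpat animal 2 and to -0.30 without NmatNpat animal 3. HSD11B2, which inactivates cortisol and is best known from the kidney's collecting duct, read 5.32, 5.20, 5.76 and 4.71 in NmatCpat lambs. In NmatNpat lambs it read 5.30, 5.33, 5.15 and 5.37. The NmatCpat lambs spread on both sides of the NmatNpat ones, with an SD of 0.433 against 0.0967, and the difference was -0.04 with an interval from -0.58 to 0.50 (limma, adjusted p = 0.995; exact permutation p = 0.80). The direction of HSD11B2 rested on NmatCpat animal 4, the lamb with the highest mean of the muscle markers, and the difference was 0.14 without it. Of 9 marker genes of the kidney, 5 were measured, and their mean was 5.29 to 5.56 in NmatCpat lambs and 4.78 to 5.93 in NmatNpat lambs. Tissue of the kidney was not tested as a source of HSD11B2.

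**Figure D1:**
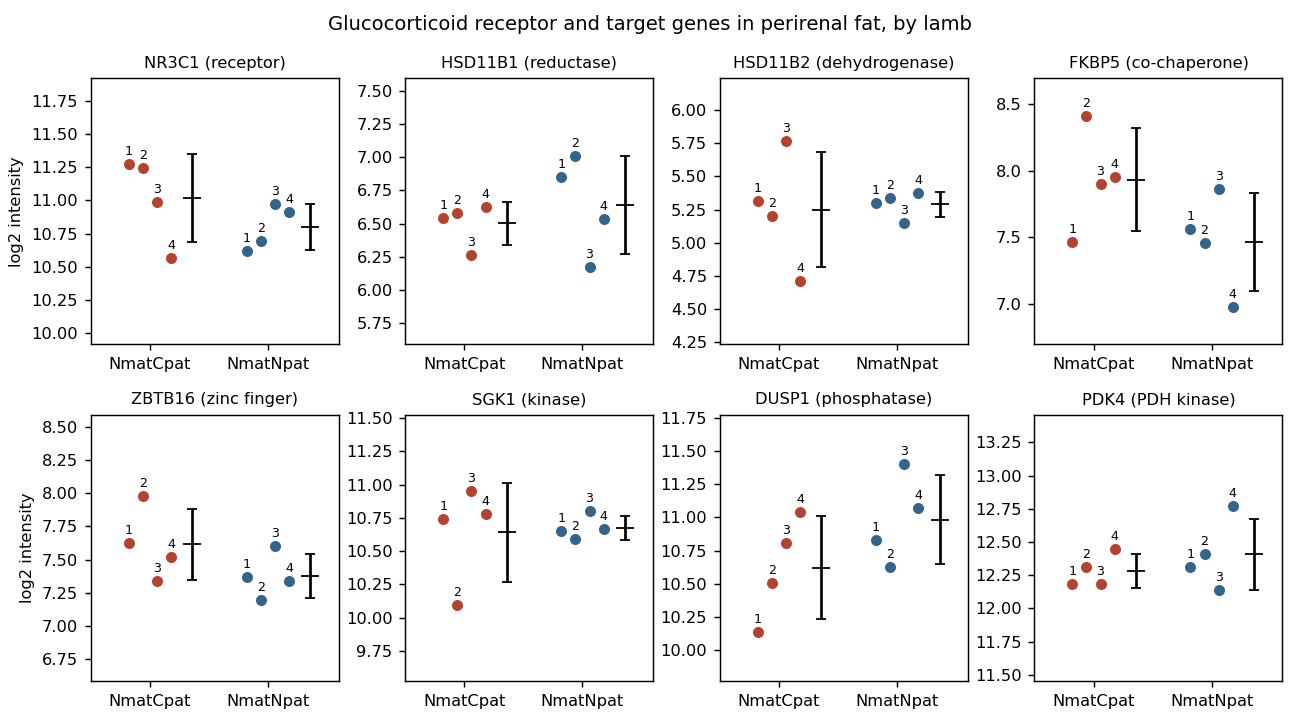
Log2 intensity (vertical axis, quantile-normalized, each panel 2 log2 units high) of 8 genes of the glucocorticoid response in 4 NmatCpat and 4 NmatNpat lambs. Points are lambs with their animal numbers, and black bars with caps show each mean ± SD (n = 4); the genotypes overlap in every panel, and FKBP5 lies at 7.47 to 8.41 in NmatCpat lambs and 6.98 to 7.86 in NmatNpat lambs.

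FKBP5, a co-chaperone of the receptor that lowers its affinity for hormone and is itself a target of the receptor, came closest to the thresholds. It read 7.47, 8.41, 7.90 and 7.96 in NmatCpat lambs, against 7.56, 7.46, 7.86 and 6.98 in NmatNpat lambs. All but NmatCpat animal 1 lay above the highest NmatNpat lamb, and means were 7.93 ± 0.388 for NmatCpat and 7.46 ± 0.368 for NmatNpat lambs (SD, n = 4 each). The log2 difference of 0.47 had a 95% interval from -0.15 to 1.09 (SE 0.27; limma, adjusted p = 0.983; exact permutation p = 0.143). This was the smallest unadjusted P of the 8 genes, at 0.119. FKBP5 was also the only one of the 8 whose interval did not stay inside a 2-fold change. Over 19 alternatives of the processing it was least at 0.31, where NmatNpat animal 4 was left out, and greatest at 0.63, where NmatCpat animal 1 was, and none brought it past the thresholds.

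ZBTB16, a zinc finger transcription factor induced by glucocorticoids in many cell types, read 7.62, 7.97, 7.34 and 7.52 in NmatCpat lambs. It read 7.37, 7.20, 7.60 and 7.34 in NmatNpat lambs, so that NmatCpat animals 1 and 2 lay above all of these and animals 3 and 4 among them. The log2 difference was 0.24 with an interval from -0.20 to 0.68 (limma, adjusted p = 0.983; exact permutation p = 0.20). NmatCpat animal 2 was the highest of the 8 lambs for both FKBP5 and ZBTB16, and without it the ZBTB16 difference was 0.12.

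SGK1, a kinase that controls sodium transport and cell survival, read 10.74, 10.10, 10.95 and 10.78 in NmatCpat lambs, against 10.65, 10.59, 10.80 and 10.66 in NmatNpat lambs. NmatCpat animal 2, the highest lamb for FKBP5, was the lowest for SGK1, and the other 3 NmatCpat lambs lay at or above most NmatNpat lambs. The difference of -0.03 had an interval from -0.53 to 0.46 (limma, adjusted p = 0.996; exact permutation p = 0.943), and it was 0.15 without NmatCpat animal 2. A further SGK1 probe set of middling level had the same rounded difference, -0.03. The dimmest of the 3, whose mean level lay at 5.72% of the way up the array, read 2.67, 1.62, 3.88 and 3.82 in NmatCpat lambs and 3.23, 1.42, 1.45 and 1.66 in NmatNpat lambs, and its difference of 1.05 had an interval from -0.37 to 2.48.

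DUSP1, a phosphatase that switches off stress-activated MAP kinases and is induced both by glucocorticoids and by acute stimulation, read 10.14, 10.51, 10.81 and 11.04 in NmatCpat lambs. In NmatNpat lambs it read 10.83, 10.62, 11.40 and 11.07. The 2 lowest lambs of the 8 were NmatCpat animals 1 and 2, and the other 2 NmatCpat lambs lay within the NmatNpat range. The log2 difference was -0.36 with an interval from -0.96 to 0.24 (limma, adjusted p = 0.983; exact permutation p = 0.20). Leaving out NmatCpat animal 1 gave -0.20, and leaving out both NmatNpat animal 1 and NmatCpat animal 4 gave -0.55.

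PDK4, a kinase that shuts pyruvate out of oxidation in fasting and under glucocorticoids, read 12.19, 12.31, 12.18 and 12.45 in NmatCpat lambs, against 12.31, 12.41, 12.14 and 12.77 in NmatNpat lambs. The NmatCpat lambs lay inside the NmatNpat range, and PDK4 varied least of the 8 genes over the lambs, with an SD of 0.205 against a median of 0.359 over all 9155 genes. The difference was -0.12 with an interval from -0.55 to 0.30 (limma, adjusted p = 0.983; exact permutation p = 0.543), and leaving out NmatNpat animal 4 or 3 gave -0.0024 or -0.21. The other PDK4 probe sets had differences of 0.28 and 0.04, so that PDK4 had no common sign over its 3 probe sets.

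**Figure D2:**
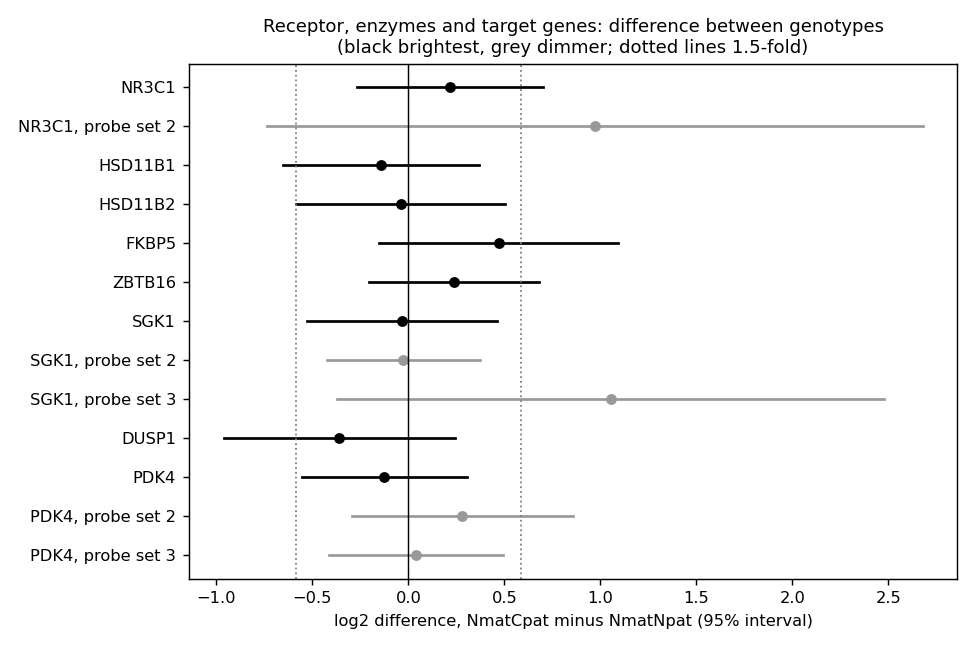
Log2 difference (horizontal axis, NmatCpat minus NmatNpat) of the 13 probe sets, with 95% intervals from limma as lines. Black marks the brightest probe set of a gene, grey its dimmer ones and dotted lines a 1.5-fold change; every interval crosses 0, and the widest are those of the dim probe sets of NR3C1 and SGK1.

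The intervals set limits on the differences in probe set signal that the arrays could have missed. For 7 of the 8 genes the interval lay inside a 2-fold change either way, which was so for 62.9% of all genes. It lay inside a 1.5-fold change for 3 of them, HSD11B2, PDK4 and SGK1, which was so for 25.9% of all genes. HSD11B2 was dim, its mean level at 38.7% of the way up the array's probe sets, and whether its signal follows the transcript was not tested. Differences within the intervals could not be told from the spread between lambs in any of the 8 genes.

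Whether the genes of the response followed each other from lamb to lamb was taken from the 28 pairs of the 8 genes. No pair reached an unadjusted p under 0.05. The highest correlation was between FKBP5 and ZBTB16 (Pearson's r = 0.697, two-sided exact permutation test, p = 0.059, adjusted over the pairs, 0.698; Spearman's rho = 0.619, exact permutation p = 0.115, adjusted 0.612; n = 8). It was 0.272 without NmatNpat animal 4 and NmatCpat animal 2, the lowest and the highest lamb for FKBP5. Leaving out both extremes narrows the range of FKBP5, which can lower r by itself. NR3C1 and ZBTB16 had r = 0.651 (exact permutation test, p = 0.075, adjusted 0.698; rho = 0.524, exact permutation p = 0.197, adjusted 0.612; n = 8) and 0.814 without NmatCpat animals 1 and 4. SGK1 and ZBTB16 had r = -0.617 (exact permutation test, p = 0.124, adjusted 0.698) but rho = -0.024 (exact permutation p = 0.977, adjusted 0.977; n = 8), and r was 0.929 without NmatCpat animals 2 and 3, so that its sign rested on those lambs. The receptor and FKBP5 had r = 0.228 (exact permutation test, p = 0.593, adjusted 0.698; rho = 0.095, exact permutation p = 0.84, adjusted 0.977; n = 8) and 0.654 without NmatCpat animals 1 and 4.

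The genes whose pattern over the 8 lambs was most like that of NR3C1 were sought among 6332 genes above the median level. C18H19orf12 had r = 0.944 and rho = 0.929, ACYP2, an acylphosphatase, r = 0.926 and rho = 0.881, and HEY1, a transcription factor downstream of Notch, r = 0.896 and rho = 0.952. These are the highest of 6332 values and are given as a description with no test. Without NmatCpat animals 1 and 4, the lambs farthest from the NR3C1 median, they were 0.906, 0.859 and 0.854.

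Next, DUSP1 was set beside the immediate early genes, which rise within minutes of a stimulus and mostly encode transcription factors. Of 12 measured, 11 had a difference below 0 and none passed the thresholds. The median was -0.19, where 50.7% of all genes lay above 0. On their brightest probe sets the genotypes were without overlap in 2 of the 12, FOS and JUN, beside 2.84% of all genes. Both were lower in NmatCpat lambs, by narrow gaps. The highest NmatCpat lamb read 12.00 for FOS and 11.96 for JUN, and the lowest NmatNpat lamb 12.05 and 11.97. The log2 differences were -0.42 for FOS (limma, unadjusted P = 0.058) and -0.24 for JUN (limma, unadjusted P = 0.147). An exact permutation p of 0.0286 for each follows from the lack of overlap and adds no support. On the dimmer probe sets of both genes the genotypes overlapped. JUNB, a subunit of AP-1, came first by P, at a log2 difference of -0.48 (limma, adjusted p = 0.983; exact permutation p = 0.057), from means of 10.24 ± 0.348 for NmatCpat and 10.72 ± 0.157 for NmatNpat lambs (SD, n = 4 each). Lambs differed within the NmatCpat genotype: the mean deviation of the 12 genes from their means over 8 lambs was -0.26, -0.37, 0.14 and 0.06 in NmatCpat animals 1 to 4, against 0.01, 0.19, 0.09 and 0.13 in NmatNpat animals 1 to 4. NmatCpat animals 1 and 2 were the 2 lowest lambs in 7 of the 12 genes, as they were for DUSP1. The mean deviation of 3 macrophage markers was below 0 in animals 1 and 2 and above 0 in animals 3 and 4 of both genotypes. It was -0.48, -0.55, 0.65 and 0.40 in NmatCpat animals 1 to 4, against -0.64, -0.29, 0.73 and 0.18 in NmatNpat animals 1 to 4. Dimmer probe sets of the immediate early genes passed P and fold in both directions. Over the whole array, 3.93% of probe sets passed and 2.74% were without overlap. That of FOS, a partner of JUNB in AP-1, had a log2 difference of -0.78, and its brighter one, with -0.42, did not pass. The dimmest of 3 probe sets of IER2, whose mean level lay at 5.67% of the way up the array, had 2.46 without overlap, at 3.03 to 4.39 in NmatCpat lambs and 0.23 to 2.36 in NmatNpat lambs (limma, adjusted p = 0.906; exact permutation p = 0.0286), where the brighter 2 had -0.16 each.

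**Figure D3:**
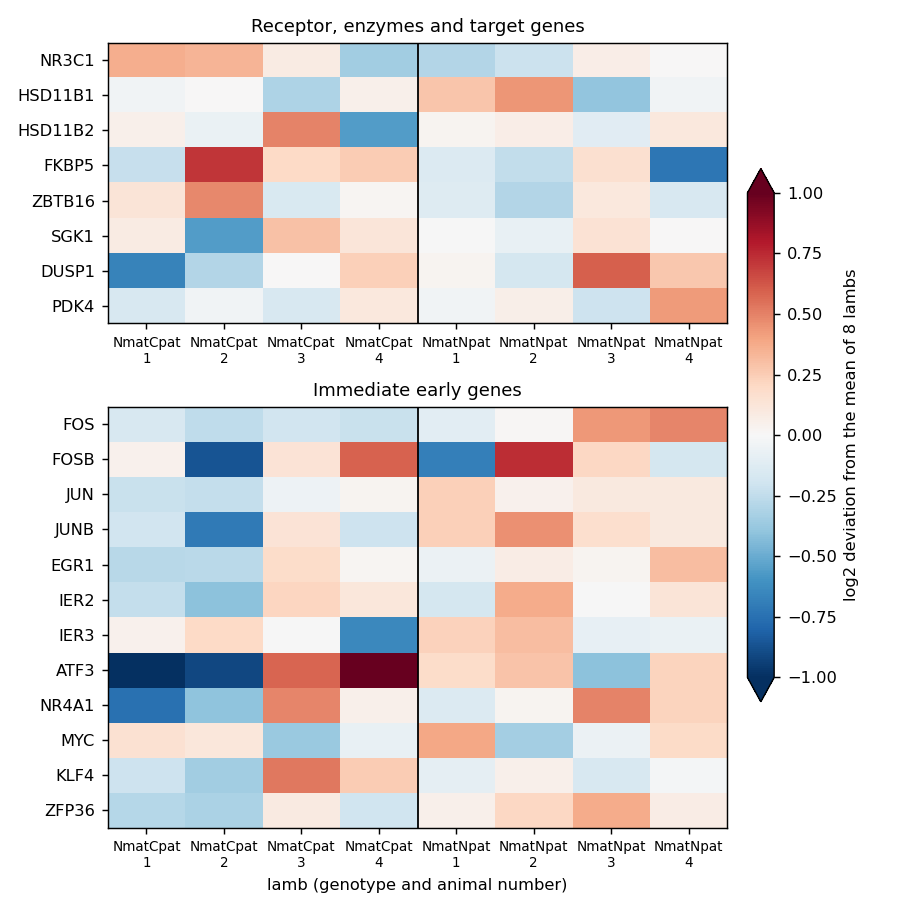
Log2 deviation of each gene from its mean over the 8 lambs (colour), for the 8 receptor, enzyme and target genes above and 12 immediate early genes below, with the 4 NmatCpat lambs left of the 4 NmatNpat lambs. DUSP1 and most immediate early genes are lowest in NmatCpat animals 1 and 2, whereas FKBP5 and ZBTB16 are highest in NmatCpat animal 2.

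Around the 8 genes, 103 other genes of the pathway were measured, of 148 symbols listed. Of these, 6 passed P and fold, 5 higher and 1 lower in NmatCpat lambs, which is 5.83% beside the 2.91% of all genes, 1.39% higher and 1.52% lower. None passed after adjustment over all probe sets. The lists were written with earlier results of these data known, so the 5.83% is a description and was not tested. The genes named from here on without a call, other than the one with the smallest P of its list, were chosen after their values had been seen.

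Among the chaperones and co-chaperones that hold the receptor ready, 2 of 14 passed (14.3%, beside 2.91% of all genes), both higher in NmatCpat lambs. Of the 14, 11 had a difference above 0, where 50.7% of all genes did, and the median was 0.15. DNAJB1, the HSP40 partner of HSP70, read 10.21, 10.06, 10.85 and 10.62 in NmatCpat lambs, against 10.03, 9.86, 9.73 and 9.37 in NmatNpat lambs. Its genotypes did not overlap, beside 2.84% of all genes without overlap, and the log2 difference was 0.69 (SE 0.24; limma, adjusted p = 0.983; exact permutation p = 0.0286, the smallest that 4 lambs against 4 allow). The dimmer DNAJB1 probe set had 0.77 and did not pass. The DNAJB1 call was lost without NmatCpat animal 3 (0.55), NmatCpat animal 4 (0.63) or NmatNpat animal 4 (0.57).

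PPID, a cyclophilin that binds HSP90, read 10.07, 10.10, 9.23 and 9.62 in NmatCpat lambs, against 9.29, 8.40, 8.65 and 9.46 in NmatNpat lambs. It had a log2 difference of 0.81 (limma, adjusted p = 0.983; exact permutation p = 0.0857), whereas its dimmer probe set had -0.10. The PPID call was lost without NmatCpat animal 1 (0.70), 2 (0.69) or 4 (0.85), or without NmatNpat animal 2 (0.63) or 3 (0.71), when NmatCpat animal 4 and NmatNpat animal 1 were both left out (0.96), and with the probe sets of the gene averaged (0.36). Of the core of the complex, HSP90AB1 and HSP90AA1, the HSP90 proteins, had 0.19 and 0.0023, PTGES3, which stabilizes the complex, 0.04, and FKBP4, the co-chaperone that favours the active receptor, 0.28, and none of these passed. FKBP4 did not overlap between the genotypes, which was so for 2.84% of all genes. It lay at 9.70 to 9.93 in NmatCpat lambs and 9.31 to 9.65 in NmatNpat lambs (limma, unadjusted P = 0.114, n = 4 each). Its exact permutation p of 0.0286 follows from the lack of overlap and adds no support.

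Of 9 measured coregulators of the receptor none passed, and 7 lay above 0, where 50.7% of all genes did. NCOR1, a corepressor, came first by P, at 0.46 on the brightest of its 5 probe sets and -0.08 to 0.30 on the rest. Its genotypes did not overlap on the brightest, which was so for 2.84% of all genes, and overlapped on the rest. Of 3 measured genes of steroid access and clearance none passed; ABCB1, an efflux pump that exports steroids, had the smallest P but was near the floor of the array, with means of 2.38 ± 1.54 for NmatCpat and 1.43 ± 0.785 for NmatNpat lambs (SD, n = 4 each).

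The further genes that glucocorticoids are known to induce were divided in direction, 18 above and 15 below 0 of 33 measured, with a median of 0.06. CRISPLD2, a secreted protein, alone passed, which is 3.03% of the 33 beside 2.91% of all genes. It read 8.58, 8.45, 9.10 and 9.20 in NmatCpat lambs, against 7.96, 7.87, 8.64 and 8.32 in NmatNpat lambs, a log2 difference of 0.64 (SE 0.26; limma, adjusted p = 0.983; exact permutation p = 0.0857). The NmatCpat lambs overlapped with NmatNpat animal 3, and the call was lost without NmatCpat animal 3 (0.55) or 4 (0.51), or without NmatNpat animal 1 (0.56), 2 (0.53) or 4 (0.68). Without both NmatNpat animal 1 and NmatCpat animal 4 it was also lost, at 0.44. CEBPD, a transcription factor of early adipogenesis, had 0.50 on its brightest probe set, 0.66 on the next, which passed P and fold without overlap, and -0.23 on the dimmest. Of all probe sets, 3.93% passed and 2.74% were without overlap. Among other induced genes, the difference was -0.0027 for GLUL, glutamine synthetase, -0.01 for KLF15, a regulator of amino acid breakdown, -0.02 for ANXA1, an anti-inflammatory protein, and 0.19 for NFKBIA, the inhibitor of NF-kappa B. The list ran from -0.54 for FBXO32, a ubiquitin ligase of muscle wasting, to 0.70 for PCK1, the enzyme that supplies glycerol for fat re-esterification, with PNPLA2, the lipase that starts triglyceride breakdown, at 0.68, and none of these passed.

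Of 21 measured inflammatory genes that glucocorticoids hold down, 12 lay above and 9 below 0. Of the 21, 3 passed, in both directions, which is 14.3% beside 2.91% of all genes. CXCL8, a neutrophil chemokine, read 4.62, 3.96, 4.40 and 5.09 in NmatCpat lambs, against 3.41, 4.13, 2.04 and 2.92 in NmatNpat lambs, a log2 difference of 1.39 (limma, adjusted p = 0.983; exact permutation p = 0.0571). It was called in 19 of 20 alternatives, the exception, at 1.29, leaving out both NmatNpat animal 1 and NmatCpat animal 4. IL6, a cytokine, read 4.85, 2.69, 4.54 and 2.12 in NmatCpat lambs, against 1.20, 2.22, 1.55 and 2.03 in NmatNpat lambs. Its difference of 1.80 (limma, adjusted p = 0.983; exact permutation p = 0.0571) was not called without NmatCpat animal 1 (1.37) or 3 (1.47), or without NmatNpat animal 1 (1.62) or 3 (1.73). IL1B, another cytokine, was lower in NmatCpat lambs, at 3.59, 5.51, 4.0 and 2.92 against 5.51, 6.12, 4.94 and 4.91 in NmatNpat lambs. The log2 difference of -1.36 (limma, adjusted p = 0.983; exact permutation p = 0.114) was not called without NmatCpat animal 1 (-1.23), 3 (-1.36) or 4 (-1.0), or without NmatNpat animal 1 (-1.32) or 2 (-1.12). Nor was it called when NmatCpat animal 4 and NmatNpat animal 1 were both left out (-0.96), with its probe sets averaged (-0.89), or in the linear model without moderated variances. The dimmer IL1B probe set had -0.41 and did not pass. The mean levels lay at 18.8% of the way up the array for CXCL8, 7.11% for IL6 and 30.2% for IL1B, and adding 16 to the intensity before taking the log made the differences 0.62 for CXCL8, 0.62 for IL6 and -0.78 for IL1B.

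**Figure D4:**
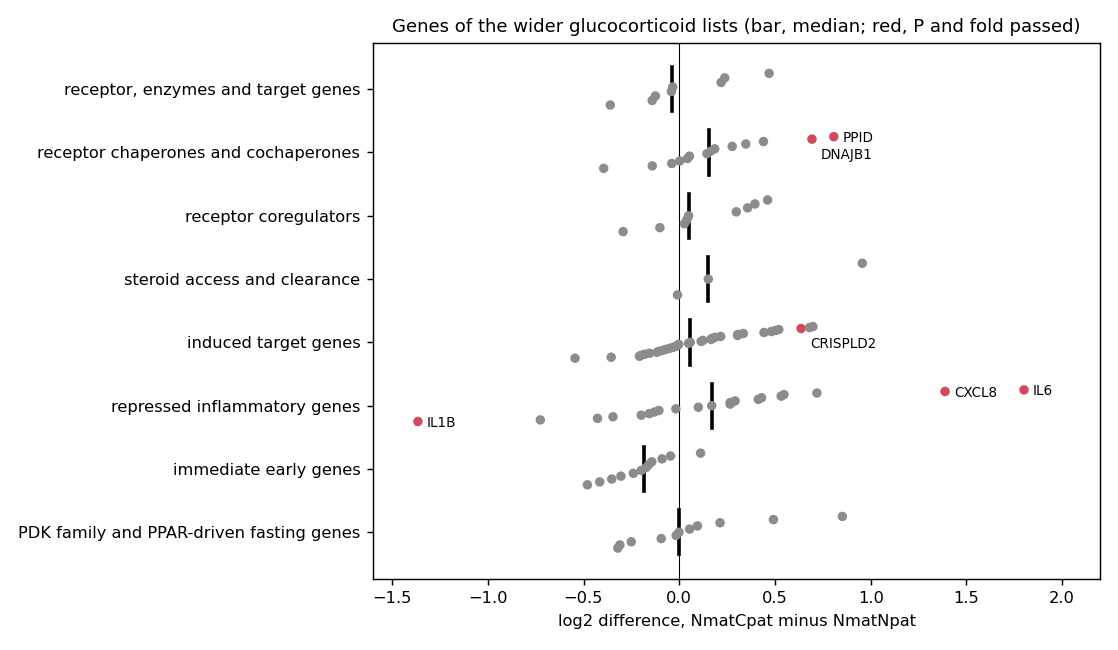
Log2 difference (horizontal axis, NmatCpat minus NmatNpat) of each measured gene on its brightest probe set, by list. Black bars are list medians, and red points with names are the 6 genes past P and fold, PPID, DNAJB1, CRISPLD2, CXCL8, IL6 and IL1B.

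PDK4 shares its regulation in fasting with genes of fatty acid oxidation, and of 11 measured genes of that list, PDK2 and PDK3 included, none passed and 5 lay above 0. PDK1 was not measured. ACADM, a dehydrogenase of medium-chain fatty acids, came first by P, at 0.49 (limma, adjusted p = 0.983; exact permutation p = 0.0857), while PDK2 had -0.02 and PDK3 -0.32. Markers of other cells that respond to the hormone were checked as well. On their brightest probe sets the 6 lymphocyte markers all had a difference below 0, where 50.7% of all genes lay above 0. Dimmer probe sets were not of 1 direction, with 0.77 for CD3D, 0.80 and 0.22 for CD2 and -0.33 for MS4A1. The mean level of the 6 was 4.32 to 5.08 in NmatCpat lambs and 4.58 to 5.79 in NmatNpat lambs. That of the 3 measured macrophage markers was 7.56 to 8.77 and 7.48 to 8.85, and no marker of either list passed. The 7 adrenal cortex markers had a mean level of 4.12 to 4.87 in NmatCpat lambs and 3.92 to 4.80 in NmatNpat lambs. The part of these cells in any value above was not tested.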

How the data were processed

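Each lamb's RNA was hybridised to 1 Affymetrix Bovine Genome array. The authors read the images with MAS5, whose version the sources used here do not state, and deposited linear intensity values with a minimum of 0.1. Their methods name a quantile normalization that the deposited columns do not show, so log2 values of all 24128 probe sets were quantile-normalized here. Control probe sets (112) were dropped, and a linear model with moderated variances (limma 3.58.1, R 4.3.3) compared genotypes over the other 24016, with p-values adjusted over all of them by Benjamini and Hochberg. The platform annotation, which is old, named 13292 probe sets with 1 symbol and 86 with several, and left 10638 unnamed, and a gene was read on its brightest probe set. Exact permutation tests used the 70 arrangements of the lambs, or all pairings for a correlation. The sources used here do not say whether lambs shared a litter, and 8 arrays limit the precision.

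The genes and lists were chosen with earlier results of these data known. Named were the 8 measured genes, in each list the genes past P and fold or otherwise that with the smallest P, and the 3 genes most like NR3C1; other genes of the lists were chosen after their values had been seen. Alternatives changed the variance model (no moderation, or a trended robust prior), the array weights, the normalization (median centring or cyclic loess), the offset before the log (16), the probe sets kept (bright ones, or those specific to a transcript), the summary of a gene (its probe sets averaged), the thresholds, the blocking by animal number and the lambs included.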

Additional observations from a re-analysis of the deposited data

Results flagged for a closer look

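In 2 groups of 4 lambs, 1 lamb lay farther from the rest than Dixon's criterion at the 95% level allows, among 60 groups examined, where chance flags about 1 in 20. On the dimmest probe set of SGK1, NmatNpat animal 1, whose array held neuron transcripts, read 3.23, against 1.42 to 1.66 in the other NmatNpat lambs. For ABCB1, NmatNpat animal 2 read 0.25, against 1.80 to 1.83 in the other NmatNpat lambs. Both probe sets lie near the floor of the array.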

How the results depend on the processing

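None of the 8 genes passed P and fold in any of the 21 alternatives, and the smallest adjusted p among them was 0.912 from limma. Their log2 differences kept their sign in 144 of 151 values. SGK1 turned to 0.00094 with median-centred arrays, 0.33 with the mean of its probe sets, 0.15 without NmatCpat animal 2 and 0.0078 without NmatNpat animal 3; PDK4 turned to 0.066 with the mean of its probe sets; HSD11B2 turned to 0.14 without NmatCpat animal 4, and to 0.14 without NmatNpat animal 1 and NmatCpat animal 4. Leaving out 1 lamb gave -0.14 to 0.15 for SGK1 and -0.21 to 0.14 for HSD11B2. The cause was not tested. NR3C1 ran from 0.13 to 0.60, HSD11B1 from -0.30 to -0.02, PDK4 from -0.21 to 0.066, FKBP5 from 0.31 to 0.63, DUSP1 from -0.55 to -0.20 and ZBTB16 from 0.12 to 0.33. The 0.60 of NR3C1 came with the mean of its probe sets, which takes in the dim one. On its brightest probe set the highest value was 0.37, without NmatCpat animal 4.

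Of the 103 further genes, the 6 calls became 3 among probe sets above the median level, where 80 of the genes were left, 3 without NmatNpat animal 1 and NmatCpat animal 4, and 3 with a fold change over 2; leaving out 1 lamb gave 3 to 6. The animal numbers are shared by the genotypes, but deviations of same-numbered lambs correlated at -0.01 to 0.18, and lambs numbered 1, 2 and 3 correlated best with their own number in both genotypes whereas those numbered 4 did not. With the animal number as a replicate block, 0 of the 8 and 4 of the 103 genes passed, DNAJB1 and IL6 being lost. No correlation between the 8 genes passed after adjustment in any of 5 alternatives. Low signal limits the dimmer probe sets of NR3C1, SGK1 and IER2, as well as ABCB1, HSD11B2 and the cytokine genes.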
